A study of Homo sapiens with 16 samples.

Results

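The DEAD-box and DEAH-box RNA helicases were followed in U2OS-TR, a line of human bone tumour (osteosarcoma) origin in which the tetracycline repressor is expressed. Members were the protein-coding genes whose GENCODE symbols are DDX or DHX with a number and, for DDX, at most 1 letter of A, B, L or X, with DDX6 left out. This gave 52 of the 60107 genes counted, 36 with DDX and 16 with DHX symbols. The gene once named DDX58 is RIGI in GENCODE and is described with the other helicases. Symbols follow sequence motifs and not function, so the list also holds DDX11, which works on DNA.

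RNA helicases of these families use ATP to pull RNA strands apart, to strip proteins from RNA or to clamp onto RNA. DEAD-box proteins open short duplexes locally, whereas most DEAH-box proteins move along a strand. Between them they act in ribosome assembly in the nucleolus, in each step of the spliceosome, in export through the nuclear pore and in translation and decay in the cytoplasm.

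All groups were cytoplasmic RNA of U2OS-TR cells. ΔN-RNMT is an inactive form of the cap methyltransferase RNMT, mutated in its binding site for S-adenosylmethionine. It lacks the nuclear localization sequences, carries a nuclear export signal and blocks cap methylation in the cytoplasm. The transgene line was 1 clone that carries ΔN-RNMT under tetracycline operator control. Its 5 uninduced libraries came from cells without doxycycline and its 5 induced libraries from cells grown for 48 h and then given 1 μg/ml doxycycline for 24 h. Parental U2OS-TR cells without the transgene gave 3 untreated libraries and 3 libraries after the same doxycycline treatment. The treatment recorded for the libraries lists doxycycline for every one of them, and the groups here follow the titles and the described design.

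Each value is a number of sequence tags next to the poly(A) tail, so it counts transcript ends and does not grow with transcript length. The transgene line had between 12527183 and 23251834 gene counts per library and the parental line between 1473286 and 3214808. RNMT was between 55.5 and 112 CPM (counts scaled by TMM to a common library size) in uninduced libraries and between 265 and 457 in induced ones, so the 2 groups did not overlap in the gene that the transgene is made from; a tag does not tell the transgene from the endogenous copy. Of 8 mesenchymal and bone markers, 7 had a tag in the induced libraries, 6 in the uninduced ones, and COL1A2 and TWIST1 held 2 and 3 tags over all 16 libraries. Of 7 markers of other cells, CD3E and ALB were at 0, EPCAM was between 4.88 and 14.3 CPM in the transgene line, and the summed level was 5.55 to 12.9 CPM in uninduced and 7.84 to 16.8 CPM in induced libraries. Of the 5 mesenchymal and bone markers tested VIM and RUNX2 rose (40%, beside 39.8% of all genes called), with log2 fold changes of 1.44 and 1.16, and COL1A1, SPARC and CD44 were at 0.00, 0.05 and 0.02. The part of these differences in the results below was not tested.

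A pair of libraries lay apart from their groups. Of the 5 uninduced libraries, replicate 5 was the closest to the induced mean for 8232 of the 13038 genes tested (63.1%), and of the 5 induced libraries, replicate 2 was the closest to the uninduced mean for 7762 (59.5%). Both kept their labels, and results are given with all 10 libraries and, where it matters, without this pair.

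Of the 52 helicases, 47 had a base mean above 20 counts in the transgene line and were tested, 41 were tested in the parental line and 45 in the comparison of both responses. DDX4, DDX25 and DDX53, which are known from germ cells and testis, had 1, 4 and 0 tags over all 16 libraries. A count of 0 among 202372423 gene counts allows up to 0.0148 CPM, for counting error only. DHX58, a regulator of the cytoplasmic sensors of viral RNA, had 12 tags in all and DDX60, an interferon-induced helicase, had 73. These 5 genes had too few tags for any comparison.

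The study's question was which mRNAs change when cap methylation in the cytoplasm is blocked, with weight on mRNAs that begin with a C and a run of pyrimidines (5′ TOP mRNAs). The annotated starts of 47 helicases were taken from a reference set of promoter sequences and matched the genome sequence (GRCh38.p14). That set had no entry for DDX18, DDX49, DDX52, DHX33 and DHX58. Starts were searched on the sense strand for a C at the first base followed by at least 4 further bases that were each C or T. Such a start was listed for 4 of the 47 helicases (8.51%) and for 5.14% of the 27305 genes with a listed start; among genes tested in the transgene line the shares were 9.3% of 43 helicases and 7.5% of 9917 genes. The 30 bases shown run from 10 before the start to 20 from it, with the pyrimidine run in capitals. They are shown for the helicases with such a start and, for comparison, for DHX9 and DDX39A, whose induced and uninduced libraries did not overlap.
DDX21, chr10:68956160-68956189, forward strand: ggggaactacCTCTTCCTCTCCacgcggtt
DDX50, chr10:68901305-68901334, forward strand: gcccccgcttCCTTTCacgctgtcgctgcc
DDX5, chr17:64506619-64506648, reverse strand: cgccttccccCTCTTTTggttacagacgtg
DDX54, chr12:113185459-113185488, reverse strand: gccacgccccCTTCTgcgttcccagcgcgc
DHX9, chr1:182839337-182839366, forward strand: cgcggtcggagccatttcgccgattcctcc
DDX39A, chr19:14419364-14419393, reverse strand: cagtcagcagagcagcagcccgacgcaaga
DDX21, a nucleolar helicase of ribosomal RNA processing, and DDX5 also have listed starts without the run, as DDX39A has a further start. The 4 helicases with the run did not share a direction: log2 fold changes in the transgene line were −0.32 for DDX21, 1.24 for DDX50, −0.07 for DDX5 and −0.48 for DDX54, and DDX50 alone passed the test. Among all genes tested, 22.8% of the 744 with such a start were lower and 17.6% higher, against 19.4% lower and 20.8% higher of the 9173 without one. A listed start is an annotation and was not measured in these cells.

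Induction of ΔN-RNMT moved some helicases up and others down. With induced compared with uninduced cells, 14 of the 47 helicases tested were called (edgeR's quasi-likelihood F-test, with Benjamini-Hochberg values over all genes under 0.05), a share of 29.8%, and 39.8% of all 13038 genes tested were called. The 6 that fell were DDX41, DDX11, DDX39A, DDX51, DDX49 and DDX19B, and 19.8% of all genes fell. The 8 that rose were DDX43, DDX20, DHX16, DHX9, DHX32, DDX50, DHX35 and DDX42, and 20.0% of all genes rose. All 14 changed more than 1.5-fold. The median log2 fold change of the 47 was 0.00 (quartiles −0.27 and 0.36), beside 0.04 over all genes. Levels are relative to each library, so a change in the total mRNA per cell was not measured. None of the 15 tested DHX genes fell and 4 rose, with a median log2 fold change of 0.29, while of 32 tested DDX genes 6 fell and 4 rose, with a median of −0.13; the families were not tested against each other.

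**Figure D1:**
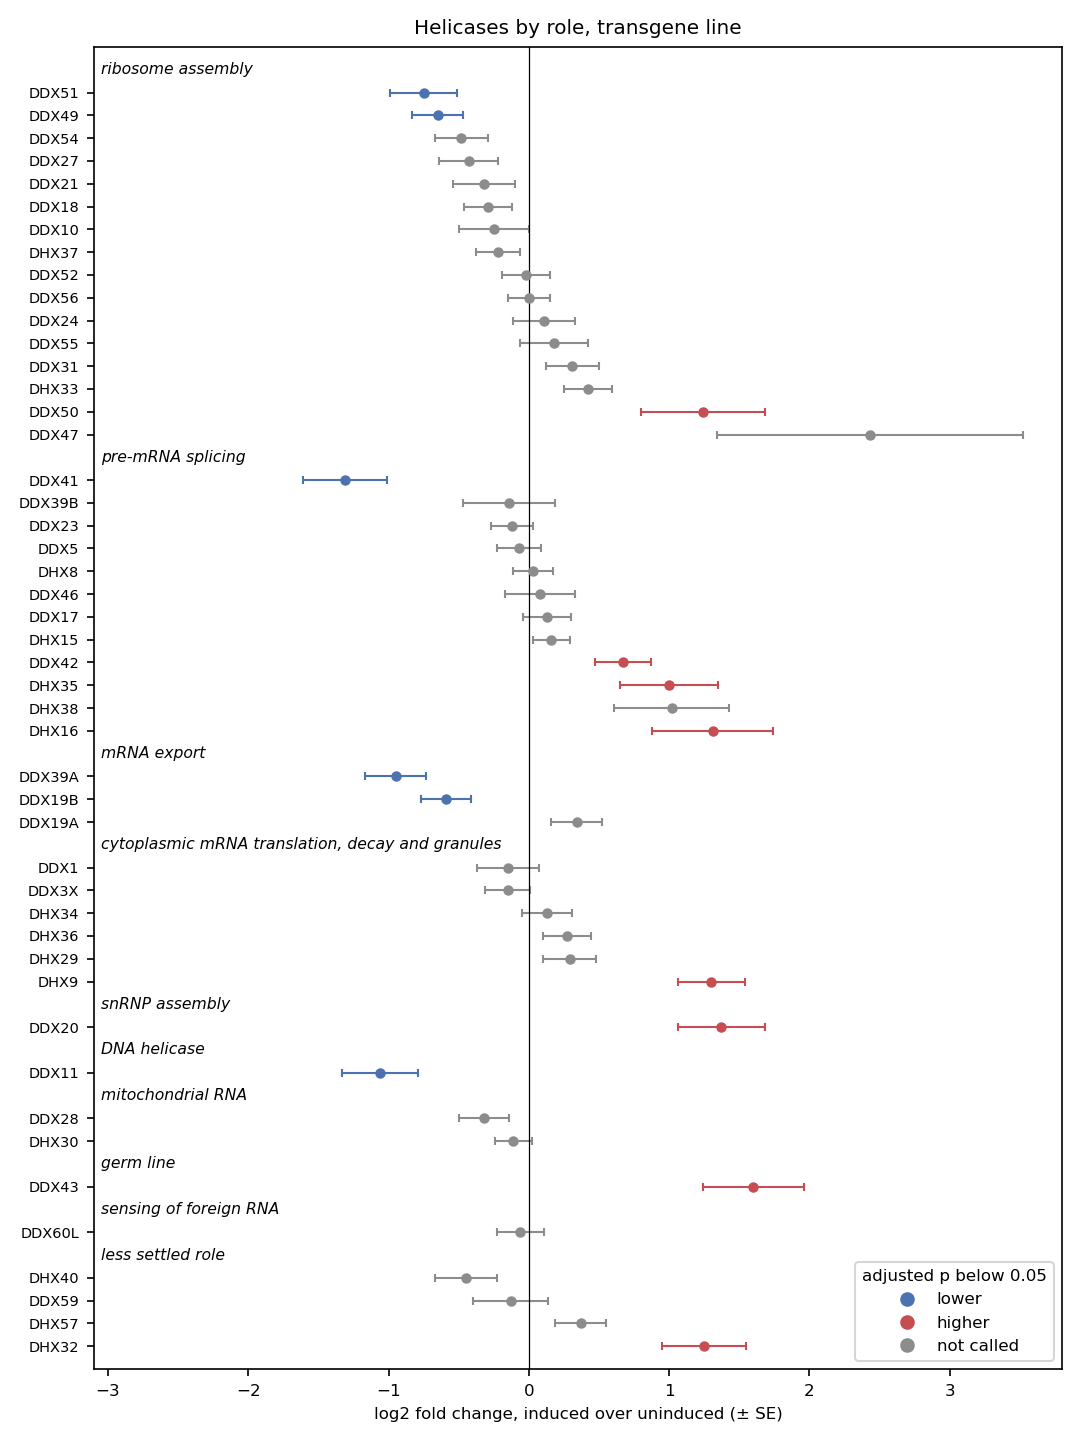
Log2 fold change of each of the 47 tested helicases between induced and uninduced cells of the transgene line, grouped by role, with its standard error as the bar and colour for the call at an adjusted p below 0.05. The 6 helicases that fell lie between −1.31 and −0.59 and the 8 that rose between 0.67 and 1.60, with both directions among the ribosome assembly and splicing helicases.

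Groups of libraries that did not overlap were rare among the helicases. This held for DHX9 and DDX39A, 2 of the 47 (4.26%), beside 7.30% of all genes tested. DHX9, which unwinds RNA duplexes and RNA-DNA hybrids and works in both nucleus and cytoplasm, occupies positions 182839347 to 182887982 of chromosome 1 (GRCh38, forward strand) and has 28 exons in its canonical transcript. The 5 uninduced libraries held 13.4, 16.7, 14.3, 16.8 and 23.1 CPM of DHX9 and the 5 induced ones 49.3, 26.0, 49.0, 53.2 and 30.1. Every induced library was above every uninduced one, the closest being induced replicate 2 at 26.0 and uninduced replicate 5 at 23.1. The mean rose from 16.9 ± 3.79 to 41.5 ± 12.5 CPM (SD, n = 5 each), a log2 fold change of 1.30 (SE 0.24, edgeR adjusted p = 0.0175). In parental cells DHX9 was at 33.6, 42.8 and 28.0 CPM without doxycycline and at 17.4, 46.6 and 13.5 CPM with it, and these groups overlapped.

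DDX39A, a close relative of the export helicase DDX39B that joins the TREX export machinery, lies on chromosome 19 from 14408798 to 14419383 on the reverse strand. It was at 63.1, 72.3, 85.3, 54.9 and 40.7 CPM in uninduced cells and at 35.3, 40.6, 35.4, 28.3 and 24.1 CPM in induced cells. The groups were separated by the narrow step from 40.6 in induced replicate 2 to 40.7 in uninduced replicate 5. The mean fell from 63.3 ± 16.9 to 32.8 ± 6.55 CPM (SD, n = 5 each), a log2 fold change of −0.95 (SE 0.22, edgeR adjusted p = 0.0175). In parental cells its log2 fold change with doxycycline was 0.08 (SE 0.42).

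DDX43, a cancer-testis helicase that is silent in most adult tissues, had the largest rise among the called helicases. DDX43 was at 2.48, 3.38, 2.61, 3.57 and 8.18 CPM in uninduced and at 17.8, 7.42, 13.9, 13.9 and 8.89 CPM in induced libraries. Only induced replicate 2 lay within the range of the uninduced group, below uninduced replicate 5. The log2 fold change of DDX43 was 1.60 (SE 0.36, edgeR adjusted p = 0.0175). An exon of CGAS, the gene of the cytoplasmic DNA sensor, overlaps DDX43 on the opposite strand, and CGAS itself rose from 3.36 ± 2.24 to 18.4 ± 8.54 CPM (SD, n = 5 each), a log2 fold change of 2.44. Since the counting's use of strand is not given in the sources used here, their tags cannot be told apart with certainty.

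The next helicases that rose belong to different machines. DDX20, the Gemin3 subunit of the SMN complex that loads Sm proteins onto spliceosomal RNAs, was at 8.36, 5.13, 5.16, 10.5 and 12.9 CPM uninduced and at 27.8, 12.1, 25.4, 26.8 and 16.8 CPM induced. Again induced replicate 2 alone fell into the uninduced range. The log2 fold change of DDX20 was 1.37 (SE 0.31, edgeR adjusted p = 0.0175). DHX32, a DEAH-box protein without a settled function, went from 4.61, 3.56, 5.16, 4.54 and 8.40 CPM to 15.9, 5.77, 15.6, 12.8 and 12.7 CPM, with the same pair of libraries crossing. Its log2 fold change was 1.25 (SE 0.30, edgeR adjusted p = 0.0175). BCCIP overlaps DHX32 on the opposite strand and rose as well (log2 fold change 0.77, edgeR adjusted p = 0.0285).

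The helicases that fell most were DDX41 and DDX11. DDX41, a spliceosome helicase mutated in inherited myeloid malignancies, was at 36.2, 42.8, 59.9, 33.8 and 19.1 CPM uninduced and at 13.4, 22.8, 15.9, 9.79 and 15.3 CPM induced. Uninduced replicate 5 lay below induced replicate 2, and the other 8 libraries did not overlap. Its log2 fold change was −1.31 (SE 0.30, edgeR adjusted p = 0.0175). DDX11, a DNA helicase of sister chromatid cohesion, was at 47.0, 49.4, 72.1, 39.4 and 22.8 CPM uninduced and at 19.9, 30.6, 19.9, 22.0 and 18.5 CPM induced. For DDX11 the log2 fold change was −1.06 (SE 0.27, edgeR adjusted p = 0.0180). DDX11 has near-identical copies elsewhere in the genome, and tags that aligned to more than 1 place were left out of the counts, so its level is uncertain.

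**Figure D2:**
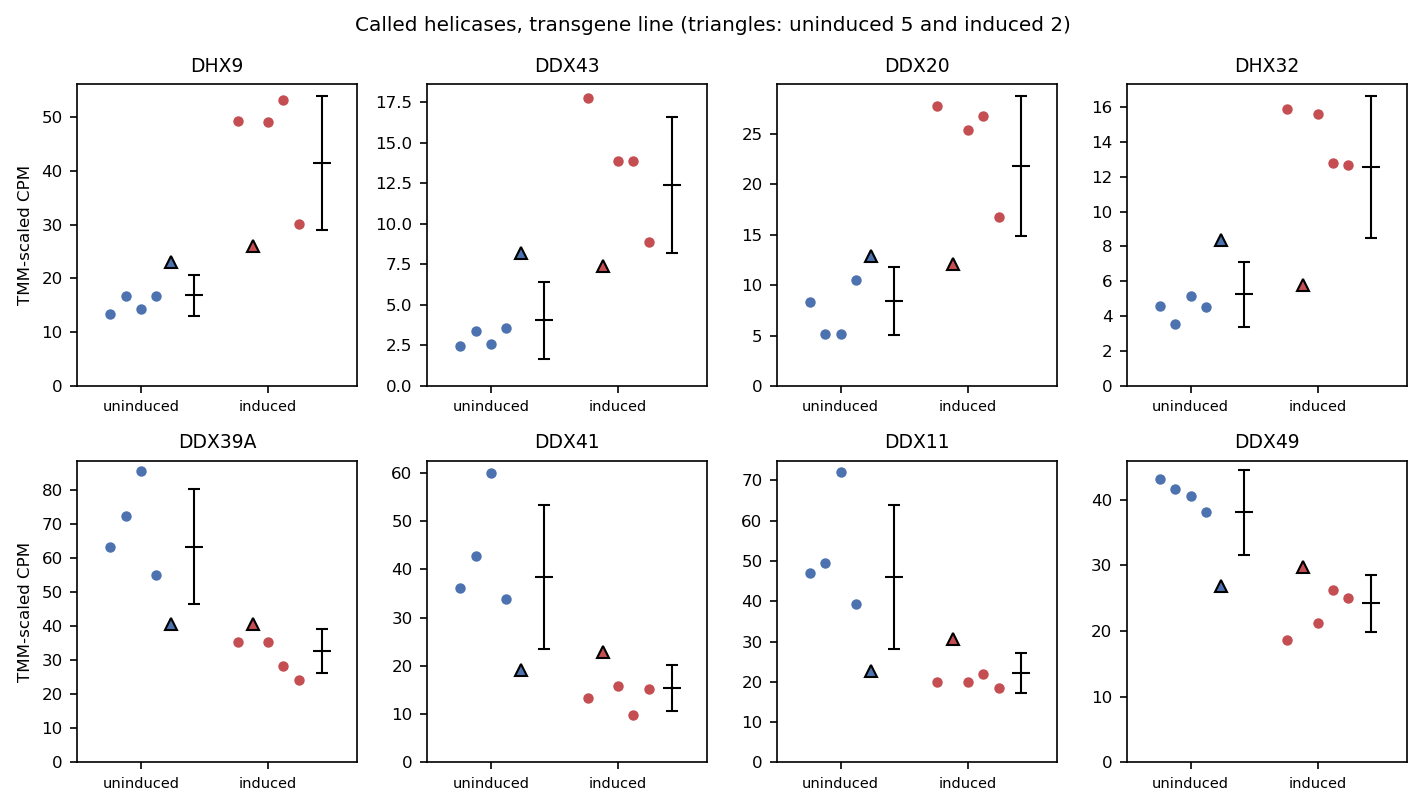
TMM-scaled CPM of 8 called helicases in each of the 5 uninduced and 5 induced libraries, with the mean and SD as the bar beside each group and triangles for uninduced replicate 5 and induced replicate 2. In each panel the triangles sit next to each other between the remaining uninduced and induced libraries.

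Among the called helicases the crossing nearly always involved the same libraries. Uninduced replicate 5 was the uninduced library nearest to the induced mean for 13 of the 14, and induced replicate 2 was the induced library nearest to the uninduced mean for 13 of the 14. When both were left out, 12 helicases fell and 14 rose, including all 14 called with them, and 64.3% of all genes were called. DHX9 then had a log2 fold change of 1.56 and DDX39A of −1.16. Leaving out libraries chosen for lying nearest to the other group favours larger differences, so these calls are no independent test. The numbers of calls therefore depended on these libraries, while the direction of each of the 14 was the same in every fit made. DHX9, DDX20, DDX43, DHX32, DDX39A, DDX41 and DDX11 were called with each of the 10 libraries left out in turn. Their calls came close to the threshold, with a highest edgeR adjusted p of 0.0496 for DDX11 and 0.0495 for the others. In these fits between 14.3% and 58.5% of all genes were called. DDX49 was called in 6 of these 10 fits, DDX42 in 5, DDX19B and DDX51 in 3, and DDX50, DHX16 and DHX35 in 2.

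Ribosome assembly was the largest role, with 16 helicases that remodel pre-ribosomal RNA, nearly all in the nucleolus. All 16 were tested, DDX51 and DDX49 fell, DDX50 rose and 13 were not called. The share called was 18.8%, beside 39.8% of all genes, and the median log2 fold change was −0.12. DDX49 was between 38.2 and 43.1 CPM in uninduced replicates 1 to 4, at 26.9 in replicate 5, and at 18.6, 29.8, 21.3, 26.3 and 25.1 CPM in induced libraries. Its log2 fold change was −0.65 (SE 0.18, edgeR adjusted p = 0.0204), and that of DDX51 was −0.75 (SE 0.24, edgeR adjusted p = 0.0315). DDX54 lay just outside the threshold with a log2 fold change of −0.48 (SE 0.19, edgeR adjusted p = 0.0580), and DHX33 with 0.42 (SE 0.17, edgeR adjusted p = 0.0608). C1QBP overlaps DHX33 exons on the same strand and spans the end of DHX33 at 5440917 on chromosome 17. How the counting treats tags in both genes is not given, so the level of DHX33 is uncertain. The uncalled DDX10, DDX18, DDX24, DDX27, DDX31, DDX52, DDX55, DDX56 and DHX37 lay between −0.43 for DDX27 and 0.31 for DDX31.

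DDX21 and DDX50 are neighbouring paralogues on chromosome 10, DDX50 from 68901286 to 68946847 and DDX21 from 68956135 to 68985068, both on the forward strand. DDX21 was at 263, 265, 384, 241 and 180 CPM in uninduced cells and at 239, 245, 218, 229 and 138 CPM in induced cells, and the groups overlapped. Its log2 fold change was −0.32 (SE 0.22, edgeR adjusted p = 0.246), with an approximate 95% interval from −0.75 to 0.11. DDX50 was at 37, 22.5, 11.8, 46.1 and 95.2 CPM uninduced and at 124, 84.9, 117, 97.7 and 80.8 CPM induced, so its uninduced libraries were spread over a wide range and replicate 5 lay among the induced ones. The log2 fold change of DDX50 was 1.24 (SE 0.44, edgeR adjusted p = 0.0419). The log2 ratio of DDX21 to DDX50 counts within a library was 2.83, 3.56, 5.03, 2.39 and 0.92 in uninduced libraries and 0.95, 1.53, 0.90, 1.23 and 0.77 in induced ones. It fell by 1.87 on average, and over 4 pairs compared the exact permutation test gave p = 0.0317, which was 0.0635 after Benjamini-Hochberg adjustment, where the smallest p that 5 against 5 libraries allow is 0.00794.

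DDX47, a helicase of early pre-ribosomes that was picked out here after its values were seen, had the largest difference of all and did not pass. It was at 2.94, 0.933, 0.333, 2.03 and 36.8 CPM in uninduced cells and at 62.7, 3.90, 57.0, 45.6 and 65.1 CPM in induced cells. Uninduced replicate 5 and induced replicate 2 each sat in the other group's range. The log2 fold change was 2.43 (SE 1.09, edgeR adjusted p = 0.0874). Without both it was 5.17 and called, in a fit that called 64.3% of all genes. Both libraries were left out because they lay nearest to the other group, so this call is no independent test. APOLD1 lies on the same strand and ends at 12829975 on chromosome 12, next to the end of DDX47 at 12829981, so tags at this end lie in both genes and the level of DDX47 is uncertain. APOLD1 went the other way (log2 fold change −0.51, edgeR adjusted p = 0.0619). In parental cells DDX47 ranged from 15.2 to 77.9 CPM without and from 0.795 to 57.9 CPM with doxycycline.

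Pre-mRNA splicing held 12 helicases, all tested, of which DDX41 fell and DDX42, DHX16 and DHX35 rose. This made 33.3% called, beside 39.8% of all genes, with a median log2 fold change of 0.11. DHX16, which drives the spliceosome into its active form, was at 5.32, 4.61, 4.55, 4.54 and 17.3 CPM uninduced and at 19.3, 8.07, 23.3, 22.9 and 16.7 CPM induced. The first 4 uninduced libraries were nearly equal and replicate 5 stood far above them. Its log2 fold change was 1.31 (SE 0.43, edgeR adjusted p = 0.0324). C6orf136, on the opposite strand of DHX16, fell (log2 fold change −0.55, edgeR adjusted p = 0.0486). DHX35, found in the catalytic spliceosome, was low at 1.06 ± 0.433 CPM uninduced and 2.16 ± 0.754 CPM induced (SD, n = 5 each), and the log2 fold change was 1.00 (SE 0.35, edgeR adjusted p = 0.0405). DDX42, which accompanies the U2 particle, rose from 19.1 ± 4.08 to 30.3 ± 5.80 CPM (SD, n = 5 each), a log2 fold change of 0.67 (SE 0.20, edgeR adjusted p = 0.0241).

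Other spliceosome helicases moved little or were not resolved. DHX38, needed for the second splicing step and named here after its values were seen, went from 31.4 ± 23.2 to 63.9 ± 8.88 CPM (SD, n = 5 each), with a log2 fold change of 1.02 (SE 0.41, edgeR adjusted p = 0.0613). DHX8, which releases the finished mRNA, and DHX15, which takes the spliceosome apart, had log2 fold changes of 0.03 (SE 0.14) and 0.16 (SE 0.13). DDX23 and DDX46, which join the assembling spliceosome, were at −0.12 (SE 0.15) and 0.08 (SE 0.25). C5orf24 overlaps DDX46 exons on the same strand, and how the counting treats tags in both genes is not given. The level of DDX46 is therefore uncertain. The paralogues DDX5 and DDX17, cofactors of splicing and transcription, were at −0.07 (SE 0.16) and 0.13 (SE 0.17). The ratio of DDX5 to DDX17 changed by −0.23 on the log2 scale (exact permutation p = 0.444, unchanged by the adjustment over 4 pairs).

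Export of mRNA had 3 tested helicases, and both DDX39A and DDX19B fell while DDX19A did not pass the test. Of these 3 genes 66.7% were called, beside 39.8% of all genes. DDX19A and DDX19B are near-identical paralogues of chromosome 16 that act at the cytoplasmic face of the nuclear pore. DDX19B was at 50.5, 46.6, 60.2, 50.8 and 36.8 CPM uninduced and at 35.9, 38.5, 34.7, 30.7 and 22.5 CPM induced, a log2 fold change of −0.59 (SE 0.18, edgeR adjusted p = 0.0278). DDX19A was at 19.8, 22.6, 24.5, 22.8 and 35.4 CPM uninduced and at 27.0, 28.3, 29.9, 36.3 and 36.7 CPM induced. Apart from uninduced replicate 5, all uninduced libraries lay below all induced ones for DDX19A, and its log2 fold change was 0.34 (SE 0.18, edgeR adjusted p = 0.142). The log2 ratio of DDX19A to DDX19B went from −0.98 ± 0.53 to −0.02 ± 0.49 (SD, n = 5 each), an exact permutation p of 0.0317 and 0.0635 after adjustment over the 4 pairs. Tags shared by the pair were left out of the counts, so both levels are uncertain. A readthrough gene that overlaps exons of both on the same strand had 0 counts in the transgene line. How the counting treats tags in shared exons is not given, so this 0 does not show its absence.

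DDX39B, which works in both splicing and export, was low at 2.23, 2.16, 2.16, 1.98 and 2.34 CPM uninduced and at 1.19, 2.21, 0.696, 2.76 and 2.90 CPM induced. The readthrough gene ATP6V1G2-DDX39B ends at the same base as DDX39B on the same strand (31530219 on chromosome 6) and was at 0, and DDX39B has 2 annotated pseudogenes. Tags next to this end lie in both genes, and how the counting treats such tags is not given in the sources used here, so neither the level of DDX39B nor a ratio to it can be read as expression. The log2 fold change was −0.14 (SE 0.33), and the ratio of DDX39A to DDX39B changed by −0.60 on the log2 scale (exact permutation p = 0.294, 0.392 after adjustment over the 4 pairs).

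Of the 6 helicases of translation, decay and granules in the cytoplasm, DHX9 alone was called (16.7%, beside 39.8% of all genes). DDX3X, which helps scanning through structured leaders, had a log2 fold change of −0.15 (SE 0.16). DHX29, a scanning helicase on the small ribosomal subunit, and DHX36, which opens G-quadruplexes, were at 0.29 (SE 0.19) and 0.27 (SE 0.17), neither called. DDX1 and DHX34, the latter a factor of nonsense-mediated decay, were at −0.15 (SE 0.22) and 0.13 (SE 0.18). In the mitochondria, DHX30 and DDX28, both needed for mitochondrial ribosomes, were at −0.11 (SE 0.13) and −0.32 (SE 0.18) and were not called. DDX60L, the 1 tested helicase of the group that senses foreign RNA, was at −0.06 (SE 0.17). Of the 4 helicases with a less settled role DHX32 rose (25% called), and DHX57 (0.37), DDX59 (−0.13) and DHX40 (−0.45) were not called.

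**Figure D3:**
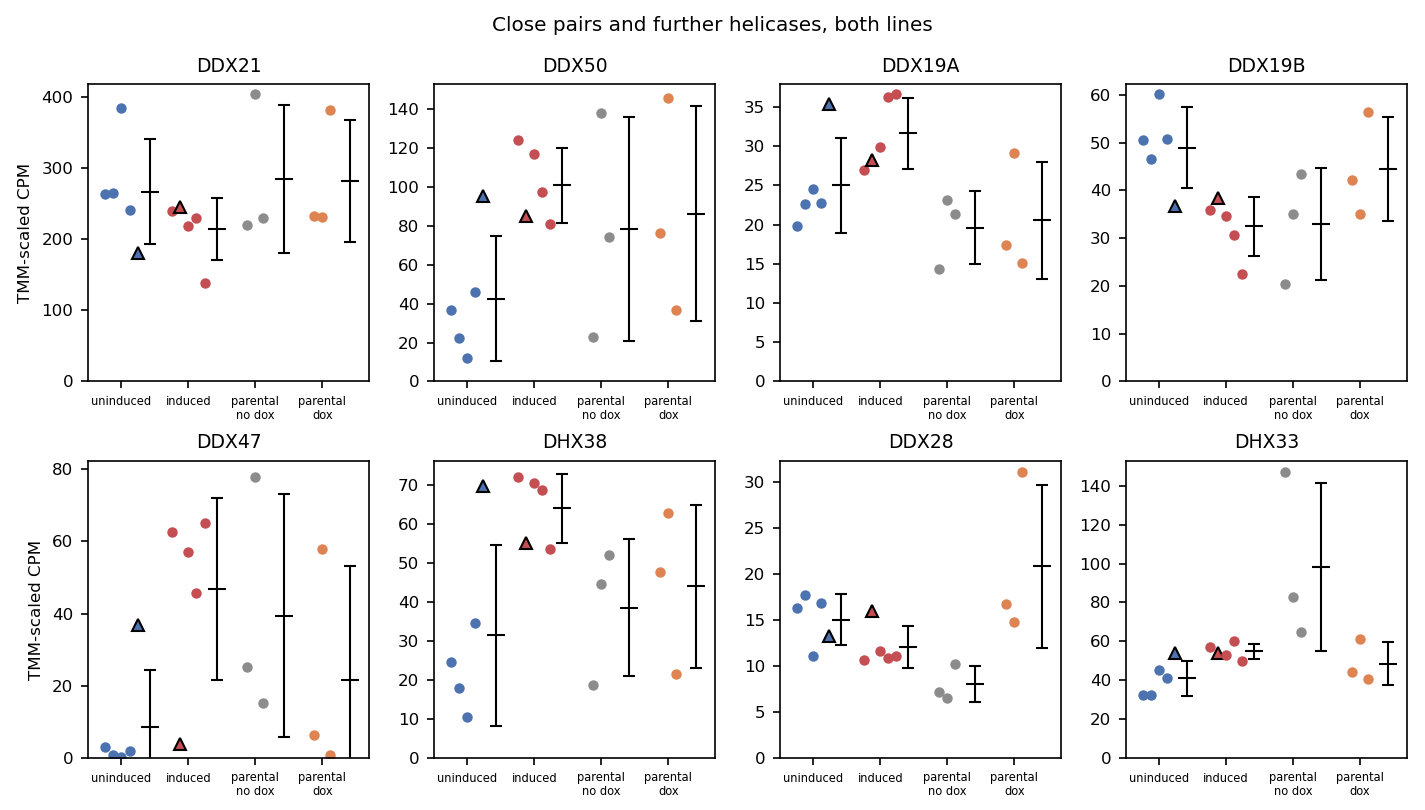
TMM-scaled CPM of 8 further helicases in all 16 libraries, with the mean and SD as the bar beside each group (cut off at 0) and triangles for uninduced replicate 5 and induced replicate 2; both lines were scaled separately. For DDX50, DDX47 and DHX38 the uninduced triangle sits with the induced libraries, and for DDX28 the 3 doxycycline-treated parental libraries sit above the 3 untreated ones.

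The GC content of the transcripts moved with the direction of the change. The 6 helicases that fell had canonical transcripts with a median GC content of 57.7% (49.0 to 61.6%), and the 8 that rose of 42.8% (40.9 to 56.6%). The same held over all genes, with medians of 57.0% for those that fell and 42.5% for those that rose. With offsets for GC content in each library, 8 helicases fell and 7 rose, and 10 of the 14 calls remained. The share called over all genes was 26.7% with the offsets. DDX49, DDX51, DDX50 and DHX35 lost their calls, with log2 fold changes of −0.24, −0.39, 0.97 and 0.96, so the first 2 were nearer to 0 while DHX35 was close to its value without the offsets. DHX9 kept a log2 fold change of 1.01, DDX20 of 1.05, DDX43 of 1.25 and DDX39A of −0.66. DHX16 rose although its transcript is GC-rich at 56.6%, with a log2 fold change of 1.55 under the offsets. DDX21 passed the threshold with the offsets, at −0.75 (edgeR adjusted p = 0.0476, between 0.0276 and 0.774 over all alternatives), as did DDX18, DDX3X and DHX40, which fell, and DHX34, which rose. DDX21 was also called, at −0.49, without uninduced replicate 5 and induced replicate 2. That pair was chosen for lying nearest to the other group, and 64.3% of all genes were then called. With 1 surrogate variable in the fit the sign of DDX21 turned, to 0.10.

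**Figure D4:**
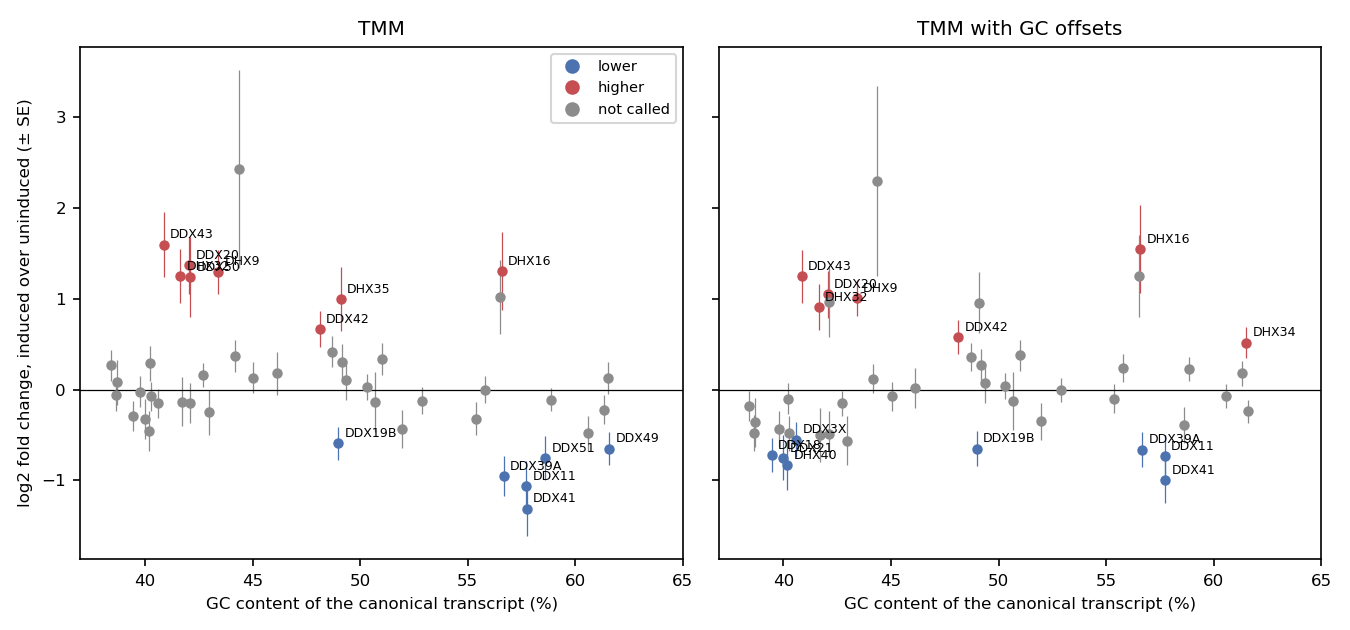
Log2 fold change between induced and uninduced cells against the GC content of the canonical transcript for the 47 tested helicases, with its standard error as the bar and colour for the call, left with TMM scaling and right with added offsets for GC content. On the left the called helicases run from high values at low GC content to low values at high GC content apart from DHX16, and on the right 3 GC-poor helicases join those that fell beside DDX21.

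Scaling also set how many helicases were called in each direction. With total counts in place of TMM, 3 helicases fell and 14 rose, with 41.6% of all genes called. The median of all genes moved from 0.04 to 0.28. DDX41, DDX11 and DDX39A were the 3 that still fell, with log2 fold changes of −1.06, −0.80 and −0.70. With 1 surrogate variable in the fit no helicase was called, and 11 had an unadjusted p below 0.05, with 1 of all genes called by edgeR. With DESeq2's Wald test 7 fell and 9 rose, among them all 14, and 45.7% of all genes were called.

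Doxycycline alone was examined in the parental line. None of the 41 helicases tested was called by edgeR, and 0% of the 9124 genes tested were; 2 helicases had an unadjusted p below 0.05, beside 2.93% of all genes, and DESeq2 also called none of the helicases. The 3 treated and 3 untreated libraries did not overlap for 6 of the 41 (14.6%), beside 9.52% of all genes. DDX28, DDX3X and DDX60L were higher in each treated library and DHX33, DHX37 and DHX8 lower. In these 6 libraries the 4 nuclear RNAs checked summed to 459 to 1621 CPM without and 263 to 442 CPM with doxycycline, and their part in these values was not tested.

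DDX28 was at 7.19, 6.54 and 10.2 CPM in untreated and at 16.7, 14.8 and 31.0 CPM in treated parental libraries. The log2 fold change was 1.34 (SE 0.51, edgeR adjusted p = 0.997). DHX33, which acts on pre-ribosomal RNA in the nucleolus, was at 147, 82.6 and 64.8 CPM untreated and at 44.2, 61.0 and 40.5 CPM treated, a log2 fold change of −1.01 (SE 0.43, edgeR adjusted p = 0.997). These were the 2 with an unadjusted p below 0.05, and the level of DHX33 is uncertain because C1QBP overlaps it on the same strand. DDX56, a nucleolar helicase, and DHX32 followed with −0.96 (SE 0.50) and −1.05 (SE 0.58), and DHX37, of small subunit assembly, with −0.90 (SE 0.55). DDX3X was at 95.9, 111 and 133 CPM untreated and at 168, 177 and 143 CPM treated. DDX60L went from 16.5 CPM in the mean to 22.9 CPM and DHX8 from 20.8 to 13.6 CPM, with log2 fold changes of 0.47 (SE 0.42) and −0.60 (SE 0.45).

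Standard errors ran from 0.36 to 1.01 among the parental helicases, wider for most than in the transgene line. For DHX9 the log2 fold change with doxycycline was −0.41 (SE 0.52), for DDX20 −0.47 (SE 0.60), for DDX50 0.15 (SE 0.64) and for DDX42 −0.45 (SE 0.51). Those that fell in the transgene line were at 0.01 for DDX41 (SE 0.39), 0.00 for DDX11 (SE 0.56), −0.18 for DDX51 (SE 0.47), −0.13 for DDX49 (SE 0.53) and 0.42 for DDX19B (SE 0.43). DDX43, DHX16 and DHX35 had too few parental tags to be tested there. DDX21 changed by −0.01 (SE 0.42).

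**Figure D5:**
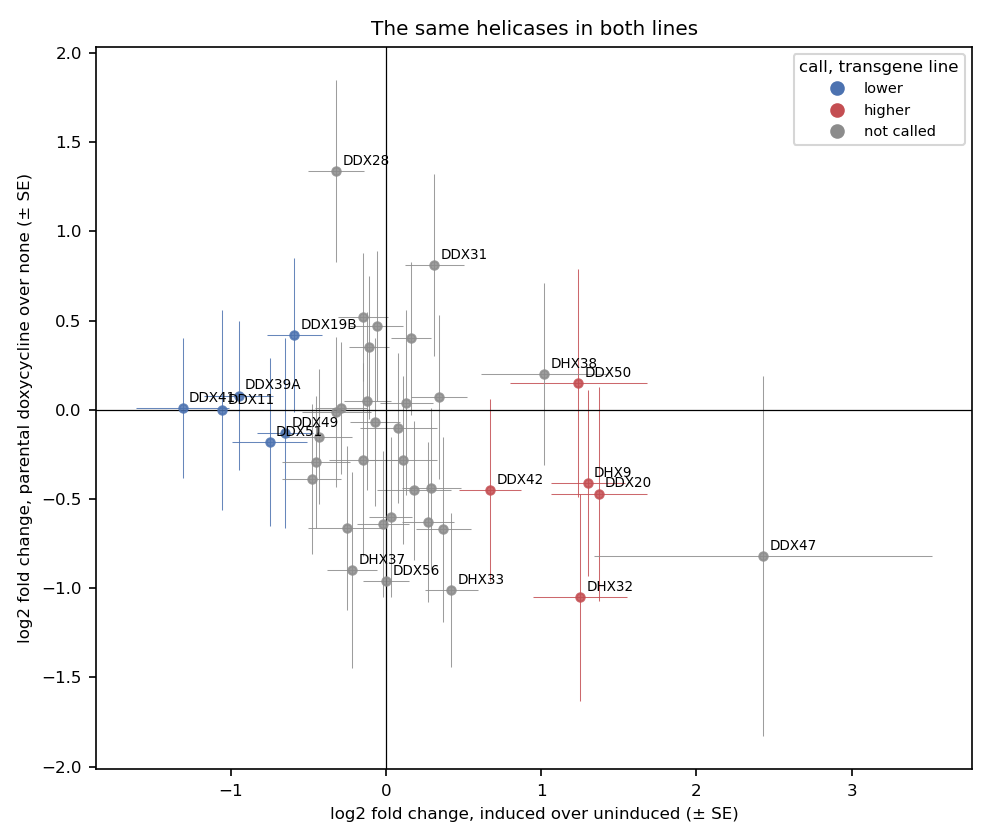
Log2 fold change with doxycycline in the parental line against that in the transgene line for the 41 helicases tested in both, with standard errors as bars and colour for the call in the transgene line. The called helicases spread along the horizontal axis from −1.31 to 1.37 while their vertical values lie between −1.05 and 0.42, with wider bars.

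Whether a helicase responded differently in the 2 lines was tested as an interaction over all 16 libraries. Only DDX28 was called, 1 of 45 (2.22%), beside 2.98% of the 12265 genes tested. Its response was lower in the transgene line by 1.88 on the log2 scale, that is −1.88 (SE 0.43, edgeR adjusted p = 0.0408), where its log2 fold change was −0.32, beside 1.34 in the parental line. DHX32 followed at 2.07 (SE 0.57, edgeR adjusted p = 0.0531) and DHX33 at 1.21 (SE 0.37, edgeR adjusted p = 0.0673). The call of DDX28 was kept in 4 of the 16 fits that left out a library, those without uninduced replicate 5, induced replicate 2, untreated parental replicate 3 or treated parental replicate 2. Of the 14 helicases called in the transgene line 13 were tested here and none passed in edgeR, so a difference of their response from that to doxycycline alone was not shown by it. DESeq2's Wald test called 8 helicases, DDX28 with DDX3X, DDX19B, DDX20, DDX41, DHX9, DHX32 and DHX33, and edgeR called 11 when uninduced replicate 5 was left out, where 12.1% and 18.9% of all genes were called. DDX28 lost its call with total counts (−1.26), with filterByExpr (−1.71) and with no filter (−1.69). Lines differed in facility, instrument and read length, which cancel only within a line. Tags assigned to no gene came to 1.11 to 1.497 per gene count in parental libraries and to 0.0744 to 0.106 in the transgene line. The part of this difference in the parental and interaction values was not tested.

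Other RNA helicases were compared from a list of 22 that the naming rule leaves out, of which 19 were tested. Of these 6 rose and 1 fell (36.8% called, beside 39.8% of all genes), with a median log2 fold change of 0.27, beside 0.04. EIF4A2, a cap-binding complex helicase, rose with 0.88 (SE 0.25, edgeR adjusted p = 0.0219), and AQR, of the spliceosome, with 0.92 (SE 0.22, edgeR adjusted p = 0.0175). SUPV3L1, of mitochondrial RNA decay, rose with 1.33, the meiotic helicase YTHDC2 with 1.22, HELZ with 0.84 and the RNA sensor RIGI with 0.81. MOV10, which joins silencing and decay complexes, fell with −0.72 (SE 0.17, edgeR adjusted p = 0.0175). EIF4A3, the helicase of the exon junction complex, was at 1.78 (SE 0.70, edgeR adjusted p = 0.0589).

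Helicases are switched on by partner proteins, and their mRNAs were counted too. Of the 3 lists of partners 31.6%, 50% and 27.3% were called, in the order given here, beside the 39.8% of all genes. Of 19 tested G-patch proteins, which activate DEAH-box helicases, GPATCH3 (−0.93), TFIP11 (−0.67) and RBM10 (−0.54) fell and RBM17 (1.17), RBM5 (1.16) and RBM6 (0.62) rose, with a median log2 fold change of 0.14. TFIP11, the partner of DHX15 in spliceosome disassembly, fell while DHX15 was not called. Of 8 proteins of the MIF4G list, which bind DEAD-box helicases and raise or restrain their activity (PDCD4 by a different, related domain), EIF4G1 (1.47), PAIP1 (1.26) and PDCD4 (0.47) rose and CNOT1 (−0.53) fell. Of 11 export and exon junction partners, THOC1 (1.12) and NUP214 (0.39) rose and THOC5 (−0.78) fell. NUP214 and GLE1 are the nuclear pore partners of DDX19A and DDX19B, and GLE1 was at 0.72 (SE 0.40, edgeR adjusted p = 0.159). In the parental line no gene of these lists was called by edgeR. EIF4G1 was lower there with doxycycline, at 37 beside 190 CPM (log2 fold change −2.37, SE 0.62, edgeR adjusted p = 0.997). The difference between the responses was called for 1 of 8 MIF4G genes (12.5%) and 1 of 19 G-patch genes (5.26%). It was called for 0 of the 11 export and exon junction partners, beside 2.98% of all genes.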

How the data were processed

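Libraries were QuantSeq REV 3′ tag libraries of cytoplasmic RNA. The authors deposited raw counts per Ensembl gene, made per library against GRCh38 in Lexogen's pipeline for this kit and not normalized; the aligner and the use of strand are not given in the sources used here. The summary entries and 92 spike-in entries, which held 0 counts, were left out. Tags that aligned to more than 1 place were not counted; per gene count they came to 0.561 to 1.33 (transgene line) or 0.773 to 1.445 (parental line). Names came from GENCODE release 44, which matched 56104 of 60107 genes.

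A base mean above 20 was required. Tests were edgeR 4.0.16 in R 4.3.3 (TMM, quasi-likelihood, Benjamini-Hochberg values over all genes, calls under 0.05), without a block, since same-numbered libraries did not deviate together. CPM were TMM-scaled separately in each line. Standard errors were derived from the test statistic. Pairs were compared on log2 ratios of counts plus 0.5 by 2-sided exact permutation tests (SciPy 1.17.1). The fits were tested on simulated data. The p-values measure the spread between libraries of 1 clone or line.

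The rule for named helicases took DDX21, those called with ΔN-RNMT, those with non-overlapping groups, the 5 lowest p in the parental line, the 3 lowest for the difference, and 5 close pairs (27 in all); others given with values were picked after the values were seen. Members, lists and roles were chosen with earlier results of these data known.

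Alternatives were DESeq2 1.42.0, its size factors, total counts, filterByExpr, no filter, the replicate block, GC offsets, 1 surrogate variable (sva 3.50.0) and each library left out. Leaving out uninduced replicate 5 with induced replicate 2, and the ratios within pairs, were added after seeing the data.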

Additional observations from a re-analysis of the deposited data

Results flagged for a closer look

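In groups of 5 libraries, 1 library stood far from the other 4 for 9 of the 58 group values looked at (Dixon's test at its 95% value). The usual 1 in 20 is no yardstick here, as these genes were mostly named for their values and share the same 10 libraries. No share over all genes was computed. Uninduced replicate 5 and induced replicate 2 were nearest to the other group for 63.1% and 59.5% of all genes. In uninduced replicate 5 the flagged values were DDX43 at 8.18 CPM, DHX16 at 17.3 CPM and DDX47 at 36.8 CPM, each the highest of its group. In induced replicate 2 they were DDX11 at 30.6 CPM, DDX28 at 16 CPM and DDX51 at 43.8 CPM, each the highest, and DDX42 at 20.3 CPM, the lowest. DDX21 was lowest in induced replicate 5 at 138 CPM, and DDX60 was highest in uninduced replicate 3 at 0.665 CPM, which rests on few tags.

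DDX28 differed between the lines in its response to doxycycline by −1.88 on the log2 scale, as tested by the interaction term.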

How the results depend on the processing

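Of the 47 tested helicases, 6 fell and 8 rose with ΔN-RNMT in edgeR with TMM. Total counts gave 3 and 14, 1 surrogate variable 0 and 0, and leaving out uninduced replicate 5 with induced replicate 2 gave 12 and 14. The share of all genes called was 39.8% with TMM, and 41.6%, 0.00767% and 64.3% in these alternatives in turn. Without 1 library each, between 3 and 10 fell and between 4 and 13 rose, with 14.3% to 58.5% of all genes called. Without induced replicate 2 there were 10 and 9 (48.8% of all genes), and without uninduced replicate 5 there were 9 and 13 (58.5%). DESeq2's size factors, DESeq2's test, filterByExpr, no filter, the GC offsets and the replicate block kept both counts within 1.5 times. In those fits 17.3% to 45.7% of all genes were called. The median log2 fold change became 0.24 with total counts, and DDX21 turned to 0.10 with 1 surrogate variable. No helicase was called in the parental line under any alternative, and its median of −0.15 became −0.32 with total counts.

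The difference between the responses was called for 1 helicase. This became 8 with DESeq2, 2 with GC offsets (DDX28 and DHX32), 2 with total counts (DHX32 and DHX33, not DDX28), and 0 with filterByExpr, with no filter and with GC offsets plus the replicate block. Without 1 library each it was between 0 and 11. Of all genes 2.98% were called in the main fit, 12.1% with DESeq2, 2.86% with GC offsets and 3.64% with total counts. The share was 0.0182% with filterByExpr, 0.529% with no filter and 1.54% with GC offsets plus the replicate block. Without 1 library each, 0% to 18.9% were called. The helicases' median difference of −0.04 became 0.18 with filterByExpr, 0.20 with no filter and 0.56 with total counts. It lay between −0.20 and 0.30 without 1 library each. The causes were not tested.

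Libraries of the same replicate number did not pair (correlations of their deviations between −0.39 and 0.67 in the transgene line). With the replicate block 6 helicases fell and 9 rose, DHX35 losing its call and DDX47 and DHX38 gaining one. None was called in the parental line, and 1 was called for the difference, as without it. Of all genes 39.8% were called in the transgene line with the block, and 1.81% for the difference.

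Parental libraries were shallow, at 1473286 to 3214808 gene counts, and the standard errors there were wider. They also held far more tags assigned to no gene, 1.11 to 1.497 per gene count, beside 0.0744 to 0.106 in the transgene line. Tags that aligned to more than 1 place were not counted, which touches the near-identical paralogues.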
